A study of Saccharomyces cerevisiae with 3 samples.

Results

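CIN8 and its named neighbours at the left end of chromosome V were followed as a set of 9 deletion strains of Saccharomyces cerevisiae, the budding yeast. The set held every probe whose annotated gene symbol was CIN8, the query gene of the screen, or NPR2, CAN1, AVT2, SIT1, HPA3, DLD3 or RMD6, which follow it toward the left telomere, or PRB1, which lies next to it on the centromere side. All 9 were among the 5325 genes named on the array. They had 28 probes, 12 for CIN8 and 2 for each of the other strains, and thus 84 possible values, of which 1 was empty.

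The screen brought a deletion of CIN8 into a pool of 5896 heterozygous diploid deletion strains, called haploid-convertible in the labels, by means of a cassette that put URA3 in place of CIN8. After sporulation, haploids were grown for 2 days at 30 °C either on medium with 5-fluoroorotic acid (5-FOA), a compound that kills cells with an active URA3, or on medium that lacked uracil. The former gave the pool of single mutants and the latter the pool of double mutants, so that all strains of both pools descend from the same transformed diploid pool. A total of 3 experiments, with 0.1, 0.15 and 0.2% 5-FOA, were each read on 1 array, with the single-mutant tags in Cy5 and the double-mutant tags in Cy3. Nothing in the labels states if the 3 experiments began with their own transformation or sporulation. The p-values therefore reflect only how far the 3 arrays scatter, and that scatter may be technical. A tag ratio cannot tell apart fewer spores of a strain and slower growth of its colonies.

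Cin8 is a bipolar motor of the kinesin-5 family that crosslinks spindle microtubules and slides them apart in mitosis. Genes that lie close together on a chromosome are seldom separated in meiosis, so that in such screens the strains of genes next to the query gene carry the imprint of linkage besides any effect of the lost function. CAN1 has a second role in this kind of screen. It encodes the arginine permease through which the toxic analogue canavanine enters the cell, and haploid-convertible strains in general carry a reporter for haploid selection in place of a copy of CAN1. The labels do not describe that reporter.

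Values are log2 ratios of the 2 channels, as deposited, centred so that the median of every array is 0 within each tag set. Every strain carries 2 tags of different sequence, read by separate probes and called here tag set A and tag set B. The sources used here do not give the direction of the ratio, so that no pool is assigned to either sign. As an anchor, the 4 strains that lack uracil biosynthesis genes (URA1, URA2, URA4 and URA5) all had positive means, between 2.70 and 5.54. URA4, the highest, rests on tag set A (6.73), while its tag set B gave 0.11 and could not be tested. The median over all 5204 strains tested was -0.10. The deposited columns had 19061, 18788 and 19016 values, and with no intensities to draw on, the number of arrays limits the precision. A strain was called when its mean differed from 0 at an adjusted p under 0.05 (limma, Benjamini-Hochberg over all strains tested).

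The strains next to CIN8 on either side stood far on the positive side, while CIN8 itself and CAN1 stood far on the negative side. Of the 9 strains, 5 were called, with NPR2 and PRB1 positive and CIN8, CAN1 and AVT2 negative. SIT1, HPA3, DLD3 and RMD6, from the fourth neighbour outward on the telomere side, were not called. Over all strains tested, 33.6% were called, 16.2% positive and 17.4% negative, so that a call by itself was common. In tag set A alone 5 of the 9 were called (34.6% of all strains), in tag set B alone 4 of 8 (33.2%), and 4 of 8 were called in the same direction by both (16.9%). The sizes were less common. NPR2 had 11 of 5204 strains above it and PRB1 had 19, whereas 159 strains lay below CIN8. CAN1 is given no rank, since 2 of its 6 values are limits.

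**Figure D1:**
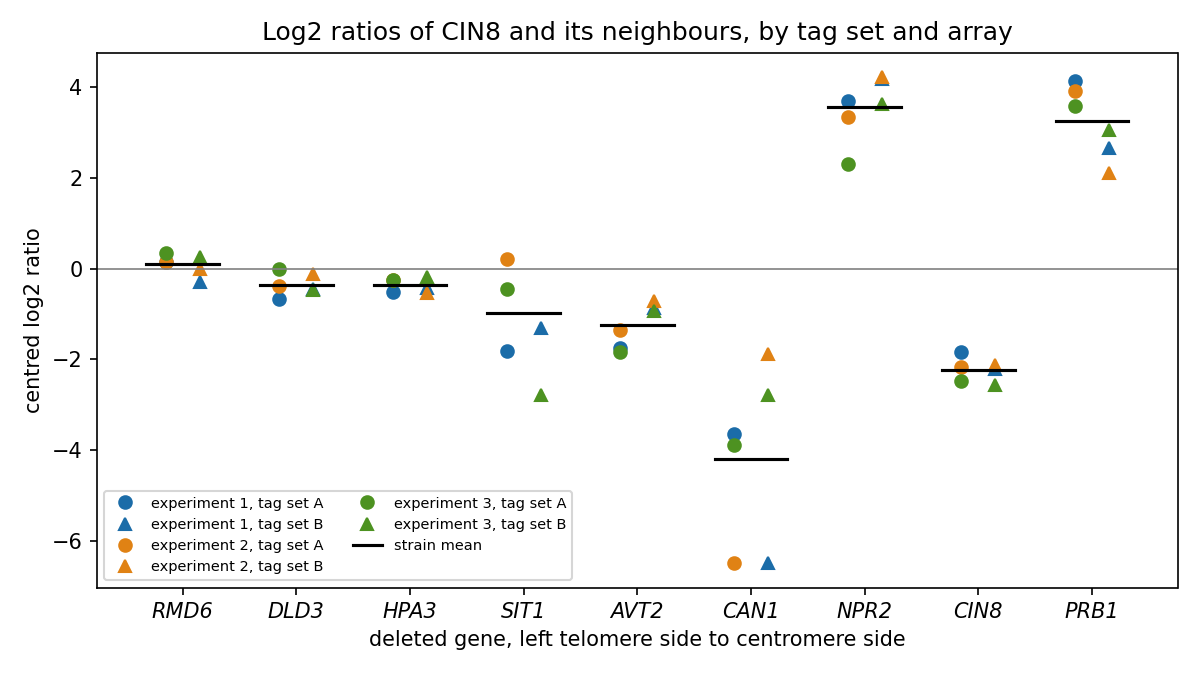
Centred log2 ratio (vertical axis) of the 9 deletion strains in gene order from the telomere side to the centromere side, with circles for tag set A, triangles for tag set B, colours for the 3 experiments and bars for strain means. NPR2 and PRB1 lie above 2 in every value, and CIN8 and CAN1 below -1.8 in every value, with the 6 spots of each CIN8 tag averaged.

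CIN8, the query gene, was measured by 6 spots in each tag set on each array. In tag set A its deposited ratios ran from 0.19 to 0.36 in experiment 1, from 0.16 to 0.25 in experiment 2 and from 0.14 to 0.19 in experiment 3. In tag set B they ran from 0.16 to 0.26, from 0.18 to 0.24 and from 0.12 to 0.26. All 36 spot values thus lay on the same side, and the ranges of the 3 experiments overlapped in both tag sets except for experiment 1 against experiment 3 in tag set A, which met at 0.19.

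After centring, the spot means of CIN8 were -1.84, -2.16 and -2.47 for tag set A, and for tag set B -2.21, -2.11 and -2.56, in experiments 1, 2 and 3. Experiment 3 was the lowest in both tag sets. The strain mean was -2.23 ± 0.26 (SD, n = 3), or 4.68-fold below 0 on the linear scale (limma, adjusted p = 0.0106), and each tag set was called alone, with adjusted p-values of 0.0089 for tag set A and 0.0090 for the other. The tag sets differed by 0.14 ± 0.22 (limma, adjusted p = 0.608). The spots of CIN8 scattered more than most. Their mean SD within an array was 0.27 for tag set A and 0.28 for the other, against medians of 0.13 and 0.12 over the 781 strains with 6 spots per tag.

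**Figure D2:**
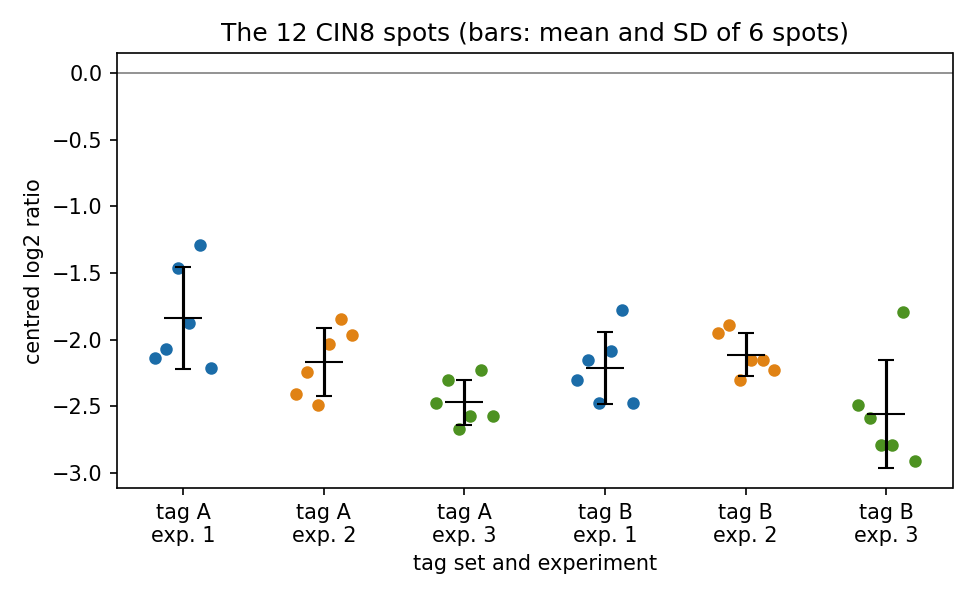
Centred log2 ratio (vertical axis) of the 12 spots of CIN8 by tag set and experiment, where each point is a spot and the bars give the mean and SD of 6 spots. All spots lie below -1.2, and the means run from -1.84 to -2.56.

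The strains most like CIN8 were sought over the 6 values of 2 tag sets on 3 arrays by Euclidean distance, among 4292 other strains with all 6. RRP6, a 3′ exonuclease of the nuclear exosome, was the closest at a distance of 0.74, against a median of 5.65 over all strains, and had a mean of -2.26 ± 0.25. PTC6, a phosphatase (-2.40 ± 0.23), UBA4, of tRNA thiolation (-1.93 ± 0.14), STE5, the scaffold of the pheromone response (-2.34 ± 0.20), and TRK1, a potassium transporter (-2.19 ± 0.60), followed at distances of 0.81, 0.82, 0.86 and 0.92. These 5 lie on chromosomes XV, III, VIII, IV and X, none of them on chromosome V. The likeness is a description of 6 values that share 3 arrays. Since the median of all strains was near 0, the median distance mainly reflects how far CIN8 lies from 0.

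PRB1 encodes proteinase B, a serine protease of the vacuole, and is the first gene on the centromere side of CIN8. Its deposited ratios were 15.37, 13.5 and 10.75 in tag set A and 5.66, 3.85 and 7.45 in tag set B in experiments 1, 2 and 3. Tag set A was above tag set B on every array. The centred strain values were 3.40, 3.01 and 3.32, with a mean of 3.24 ± 0.21 (SD, n = 3), or 9.47-fold (limma, adjusted p = 0.0086). Both tag sets were called, at 3.88 and 2.61, and their difference of 1.27 ± 0.65 was not (limma, adjusted p = 0.105).

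NPR2 encodes a subunit of the complex that restrains TORC1, the growth-promoting kinase, when amino acids run short, and is the first gene on the telomere side of CIN8. Its deposited ratios were 11.34, 9.07 and 4.42 in tag set A and 16.12, 16.54 and 11.2 in tag set B. Experiment 3 was the lowest in both tag sets, and tag set B was above tag set A on every array, the reverse of PRB1. The centred strain values were 3.93, 3.77 and 2.97, with a mean of 3.56 ± 0.51 (SD, n = 3), or 11.8-fold (limma, adjusted p = 0.0108). Both tag sets were called, at 3.11 and 4.01, and differed by -0.90 ± 0.42 (limma, adjusted p = 0.105). Among strains with all 6 values, 2.96% had every value at or above 1, and NPR2 and PRB1 were among them.

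CAN1, the arginine permease gene, follows NPR2. Its deposited ratios were 0.07, 0.01 and 0.06 in tag set A and 0.01, 0.24 and 0.13 in tag set B. The lowest ratio in the deposited table is 0.01, so that 2 of the 6 values are limits, in experiment 2 for tag set A and in experiment 1 for tag set B. If they are taken as limits, the strain mean of -4.20 is an upper bound, at least 18.4-fold below 0. Its SD of 0.86 over 3 arrays is not a measure of error (limma, adjusted p = 0.0139). Without the values at the lowest ratio the mean was -2.97 and was still called (limma, adjusted p = 0.0219), and with the tag value closer to 0 on each array it was -2.78 (limma, adjusted p = 0.0320). Tag set A alone was called at -4.68 (limma, adjusted p = 0.0202) and tag set B alone was not, at -3.72 (limma, adjusted p = 0.0704). Every centred value of CAN1 was at or below -1.89, and 1.63% of strains with all 6 values had every tag value at or below -1, CAN1 and CIN8 among them, with the spots of CIN8 averaged per tag.

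AVT2, next after CAN1, belongs to a family of amino acid transporters of the vacuole. Its deposited ratios were 0.26, 0.35 and 0.25 in tag set A and 0.49, 0.54 and 0.47 in tag set B. Tag set A was lower on every array, and the tag sets did not overlap. The mean was -1.25 ± 0.18 (SD, n = 3), or 2.37-fold below 0 (limma, adjusted p = 0.0139), with both tag sets called at -1.65 and -0.84. Their difference of -0.81 ± 0.15 did not pass (limma, adjusted p = 0.0582). With the 5-FOA percentage as a covariate, which leaves 1 residual degree of freedom, AVT2 was no longer called (limma, adjusted p = 0.0551), while the other 4 called strains were, each at an adjusted p of 0.0469.

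SIT1, a transporter of iron-bearing siderophores, varied widely between arrays. Its deposited ratios were 0.25, 1.05 and 0.65 in tag set A, and 0.36 and 0.13 in tag set B, which was empty in experiment 2. The strain value of that experiment, 0.22, thus rests on tag set A alone, beside -1.56 and -1.62 in experiments 1 and 3. The mean was -0.99 ± 1.05 (SD, n = 3) and was not called (limma, adjusted p = 0.180).

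The 3 outermost strains stood near 0. HPA3, an acetyltransferase gene that overlaps its neighbour YEL067C in RefSeq, had deposited ratios of 0.62, 0.76 and 0.75 in tag set A and 0.66, 0.61 and 0.79 in tag set B, with a mean of -0.36 ± 0.13 (limma, adjusted p = 0.0723). DLD3, a D-lactate dehydrogenase gene, had 0.55, 0.69 and 0.88 in tag set A and 0.65, 0.82 and 0.65 in tag set B, with a mean of -0.35 ± 0.18 (limma, adjusted p = 0.0963). RMD6, a gene named for a defect in meiotic nuclear division, had 0.97, 1 and 1.13 in tag set A and 0.73, 0.88 and 1.08 in tag set B, with a mean of 0.10 ± 0.19 (limma, adjusted p = 0.537). HPA3 and DLD3 lay below 0 in all 6 values after centring, whereas the 6 values of RMD6 straddled 0. Without centring, which shifts all strains by about the array medians of -0.15 to -0.18, HPA3 and DLD3 were called negative at -0.53 and -0.52 (limma, adjusted p = 0.0362 and 0.0480), and RMD6 stood at -0.066. Among strains with both tags on every array alone, HPA3 was also called (limma, adjusted p = 0.0473).

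Ordered by level, the strains ran from CAN1 through CIN8, AVT2, SIT1, HPA3, DLD3 and RMD6 to PRB1 and NPR2. The array values did not overlap between CAN1 and CIN8, CIN8 and AVT2, DLD3 and RMD6, or RMD6 and PRB1. Between CAN1 and CIN8 this rests on the CAN1 values at the lowest ratio. In experiment 2 the other tag value of CAN1 was -1.89, above the CIN8 array value of -2.14. The array values overlapped between AVT2 and SIT1, SIT1 and HPA3, HPA3 and DLD3, and PRB1 and NPR2, where neighbours in level differed by 0.26 ± 0.87, 0.63 ± 1.09, 0.01 ± 0.12 and 0.32 ± 0.59. PRB1 and NPR2 were thus not separated by more than the spread between arrays, with NPR2 higher by 0.54 and 0.76 in experiments 1 and 2 and lower by 0.35 in experiment 3. The gap between RMD6 and PRB1 was 3.14 ± 0.29, and that between CAN1 and CIN8 was 1.97 as measured. With the values at the lowest ratio left out, CAN1 stood at -2.97 and CIN8 at -2.24.

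The order on the chromosome was different from the order by level. From the telomere inward the means were 0.10 at RMD6, -0.35 at DLD3, -0.36 at HPA3, -0.99 at SIT1, -1.25 at AVT2 and -4.20 at CAN1, then 3.56 at NPR2, -2.23 at CIN8 and 3.24 at PRB1. The means of the 9 thus stepped down from RMD6 to CAN1 and changed sign at each of the next 3 boundaries. Before the step from AVT2 to CAN1, none of the steps of the descent was called. YEL067C, an uncharacterised reading frame between DLD3 and HPA3 and not among the 9, interrupted the descent at -0.72 ± 0.04 (limma, adjusted p = 0.0178).

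**Figure D3:**
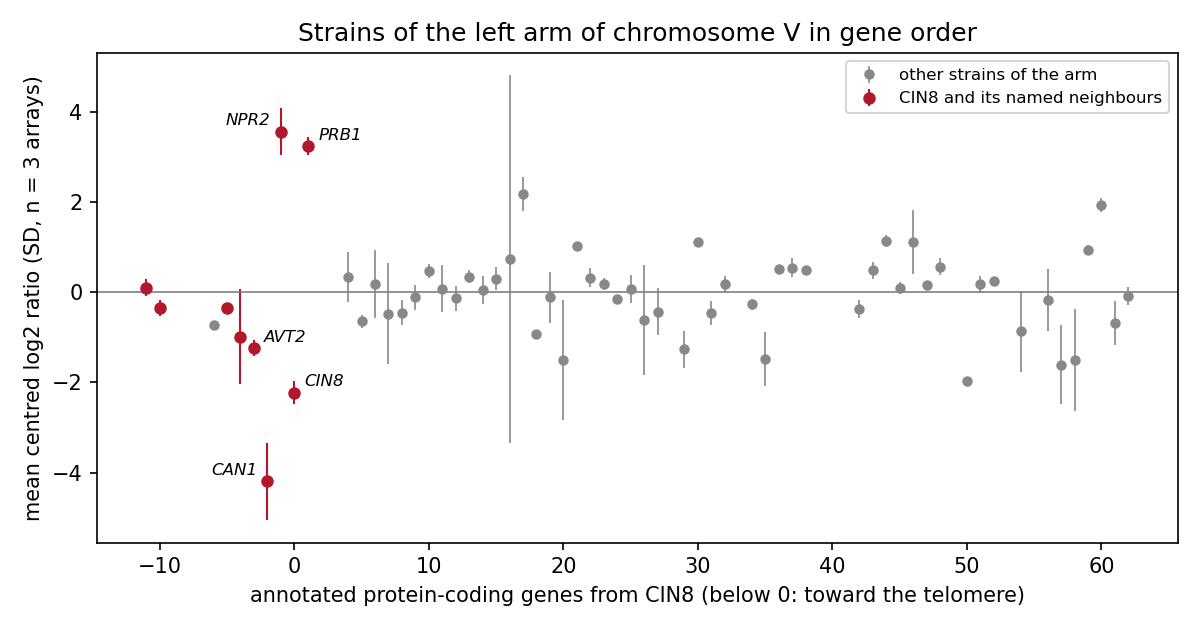
Mean centred log2 ratio with SD over 3 arrays (vertical axis) of the 61 strains tested on the left arm of chromosome V, by the number of annotated protein-coding genes from CIN8 (horizontal axis), with CIN8 and its named neighbours in red. By the mean of both tag sets, NPR2 and PRB1 are the highest strains of the arm and CAN1 and CIN8 the lowest.

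Whether strains on either side of a boundary differ was tested for every pair of strains next to each other in gene order, 5184 pairs in all, of which 25.6% were called (limma on the difference, adjusted p under 0.05). Of the 10 pairs that held at least 1 of the 9 strains, 5 were called, and these were the 5 consecutive boundaries from AVT2 to the next tested gene beyond PRB1. Pairs that share a strain are not independent. The step from CAN1 to NPR2 was 8.997, 7.966 and 6.316 in experiments 1, 2 and 3, with a mean of 7.76 (limma, adjusted p = 0.0142). This is the least size of the step only if the lowest ratios of CAN1 are taken as limits. No other pair of the 5184 had a larger one as measured, against a median size of 0.73. With those ratios left out the step was 6.52, with 2 pairs larger, and in tag sets A and B alone 1 and 4 pairs were larger.

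The steps on both sides of CIN8 were the next in size among those near CIN8. From NPR2 to CIN8 the ratio changed by -5.96, -5.91 and -5.49, with a mean of -5.79 ± 0.26 (SD, n = 3; limma, adjusted p = 0.0098). From CIN8 to PRB1 it changed by 5.42, 5.15 and 5.84, with a mean of 5.47 ± 0.35 (limma, adjusted p = 0.0098). Only 12 and 16 of the 5184 pairs had larger steps. Both steps lay far outside the spread between arrays and had opposite signs.

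The remaining 2 called steps were smaller. From AVT2 to CAN1 the ratio changed by -3.75, -3.15 and -1.96, at a mean of -2.95 as measured (limma, adjusted p = 0.0252). Without the values at the lowest ratio it changed by -1.71 (limma, adjusted p = 0.0442). From PRB1 to PCM1, an essential gene of aminosugar metabolism and the next strain tested toward the centromere, it changed by -2.91 ± 0.42 (limma, adjusted p = 0.0150). The tags of PCM1 disagreed, at 0.17, 2.94 and -4.15 in tag set A against 1.76, -3.15 and 4.43 in tag set B, so that the small SD of this step comes from averaging values of opposite sign. Neither of these steps was called in tag set A alone (limma, adjusted p = 0.0609 and 0.101) or by tag set B alone (limma, adjusted p = 0.115 and 0.436), whereas the steps at CAN1 and NPR2, NPR2 and CIN8, and CIN8 and PRB1 were called in each tag set. The 5 steps from RMD6 to AVT2 were not called, and ranged in size from 0.26 to 0.63.

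**Figure D4:**
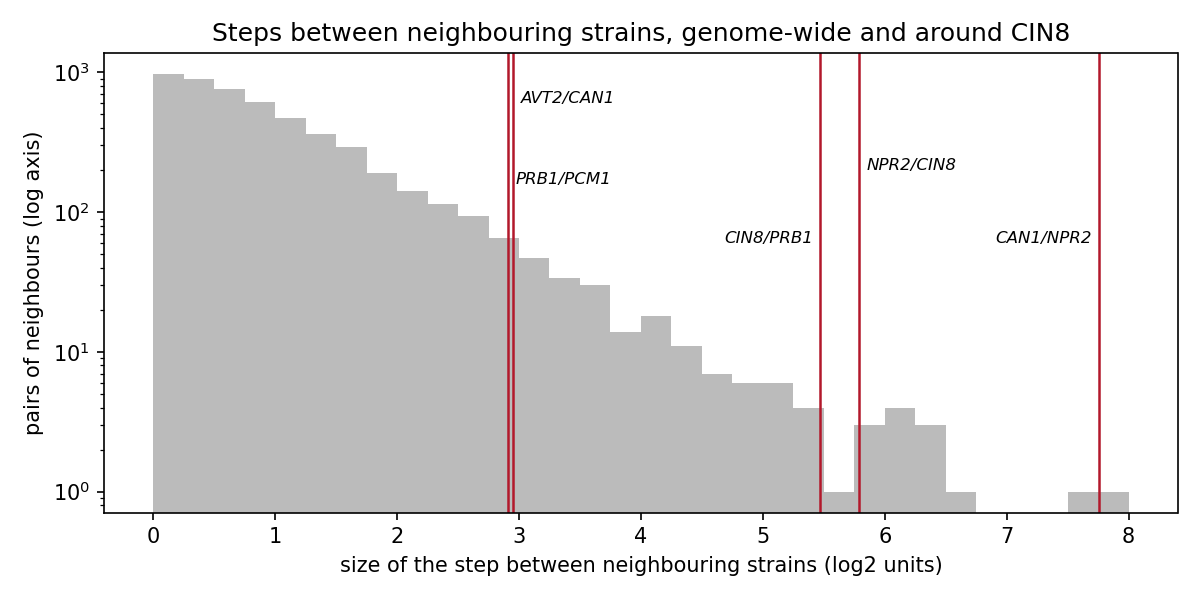
Number of pairs (vertical axis, log scale) by the size of the step in mean log2 ratio between neighbouring strains (horizontal axis, log2 units) for all 5184 pairs, with red lines at the 5 called steps around CIN8. The CAN1/NPR2 step of 7.76 stands at the right end, and the NPR2/CIN8 and CIN8/PRB1 steps at 5.79 and 5.47.

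The pattern of a strain set between a pair of called steps of opposite sign occurred in 469 of 5168 strains with neighbours on both sides (9.08%). NPR2, CIN8, CAN1 and PRB1 all had it, but they share steps and are not separate instances. CAN1 and PRB1 had it through the steps to AVT2 and PCM1, which were not called in either tag set alone. Ranked by the smaller of the 2 steps, 1 strain was ahead of NPR2 (5.79), 4 were ahead of CIN8 (5.47), 53 ahead of CAN1 (2.95) and 58 ahead of PRB1 (2.91). This ranking was chosen after the values were seen.

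On the centromere side, the next 4 strains tested after PRB1 were PCM1 (0.33 ± 0.56, a mean of the opposed tag values above), SDD1 (-0.65 ± 0.15), HAT2 (0.18 ± 0.75), the gene of a histone acetyltransferase subunit, and POL5 (-0.48 ± 1.11), and of these SDD1 alone was called (limma, adjusted p = 0.0278). Over the 51 strains from PCM1 to the centromere the median was 0.07, with 11 positive and 5 negative (16.2% and 17.4% over all strains). The range was -1.97 to 2.17, so that all of these strain means lay within the interval between CIN8 and PRB1. This did not hold for single tag sets. In tag set A, GIM4 stood at 4.21, above PRB1 (3.88), and VAC8 at -3.26, below CIN8 (-2.16). Their values in tag set B were -0.36 and -0.67. The highest strain mean was that of IES6 (2.17 ± 0.38), a subunit of the INO80 chromatin remodeller, 17 genes from CIN8. On the telomere side of NPR2 the 6 named strains had a median of -0.67, with 2 negative and 0 positive (limma; none of the other 4 reached an unadjusted p under 0.05 except HPA3 at 0.0300 and DLD3 at 0.0467).

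The strains near CIN8 were next set beside strains of genes with related functions elsewhere in the genome. NPR2 works with NPR3 in a complex that acts on TORC1. NPR3 stood at 1.62, 1.80 and 1.19 in experiments 1, 2 and 3, and SEA4, of the associated SEA complex, at 1.35 ± 0.20 (limma, adjusted p = 0.0155 and 0.0138), both called by both tags. Of 4 partners measured, 2 were positive and 0 negative, with a median of 1.07, against 16.2% positive and a median of -0.10 over all strains. RTC1 (0.79 ± 0.51) and MTC5 (0.11 ± 0.23) were not called. All 4 had means below the 3.56 of NPR2, whose lowest array value, 2.97, was above the highest of NPR3.

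Vacuolar proteases other than PRB1 did not share its level. Of 7 partners measured, 1 was positive and 0 negative, with a median of 0.13, against 16.2% positive and 17.4% negative over all strains. PRC1, carboxypeptidase Y, was the 1 called (1.14 ± 0.08; limma, adjusted p = 0.0123), with tags at 1.87 and 0.41. PEP4, the protease that activates proteinase B, stood at -0.46 ± 0.45, and PBI2, an inhibitor of proteinase B, at 0.30 ± 0.12, and neither was called.

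Of 14 amino acid permeases related to CAN1, 3 were positive and 3 negative, near the 16.2% and 17.4% over all strains, with a median of 0.25. ALP1 and LYP1, the permeases for basic amino acids closest to CAN1, stood at 0.30 ± 0.09 and 0.24 ± 0.32 and were not called. MUP1, a methionine permease, was the lowest at -1.45 ± 0.14, followed by BAP3 (-1.09 ± 0.29), and PUT4, a proline permease, the highest at 0.97 ± 0.06, followed by GAP1 (0.65 ± 0.05), the general permease (limma, adjusted p between 0.0118 and 0.0220). None of the 14 had a mean as low as CAN1. Among the 6 relatives of AVT2, AVT6 was positive (0.52 ± 0.09; limma, adjusted p = 0.0320) and 0 were negative (16.2% and 17.4% over all strains), so that no relative was called on the side of AVT2.

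Of 9 siderophore and iron uptake strains, FTR1, an iron permease (1.22 ± 0.13), and FIT2, a cell wall protein (0.74 ± 0.04), were positive and 0 were negative (limma, adjusted p = 0.0129 and 0.0173), at a median of 0.30 and beside 16.2% positive over all strains. FIT2 was called by one tag and not by the other (tags 1.22 and 0.27). None of the 3 lactate dehydrogenase strains DLD1, DLD2 and CYB2 was called, nor was HPA2 (-0.15 ± 0.93). Of 7 strains of kinesins and their partners, 3 were positive and 0 negative, against 16.2% positive over all strains. KIP1, the other kinesin-5 of yeast, stood at 4.99 ± 0.50, KAR3 at 1.89 ± 0.41 and KIP2 at 1.29 ± 0.07, all called positive. For KIP2 one tag set was called and the other was not (tags 2.13 and 0.45). KIP3 (0.62 ± 0.38, tags 1.68 and -0.43), CIK1 (0.28 ± 0.02, tags -0.43 and 0.98), SMY1 (0.20 ± 0.07) and VIK1 (-0.04 ± 0.12) were not called. The means of KIP3 and CIK1 average tag sets of opposite sign, of which the positive one was called alone. The sign of CIN8 was opposite to that of each of the 3 called kinesin strains. In the CIN8 strain the tagged deletion and the cassette concern the same gene. Its ratio is thus not that of a double mutant of different genes, and the signs are not comparable.

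**Figure D5:**
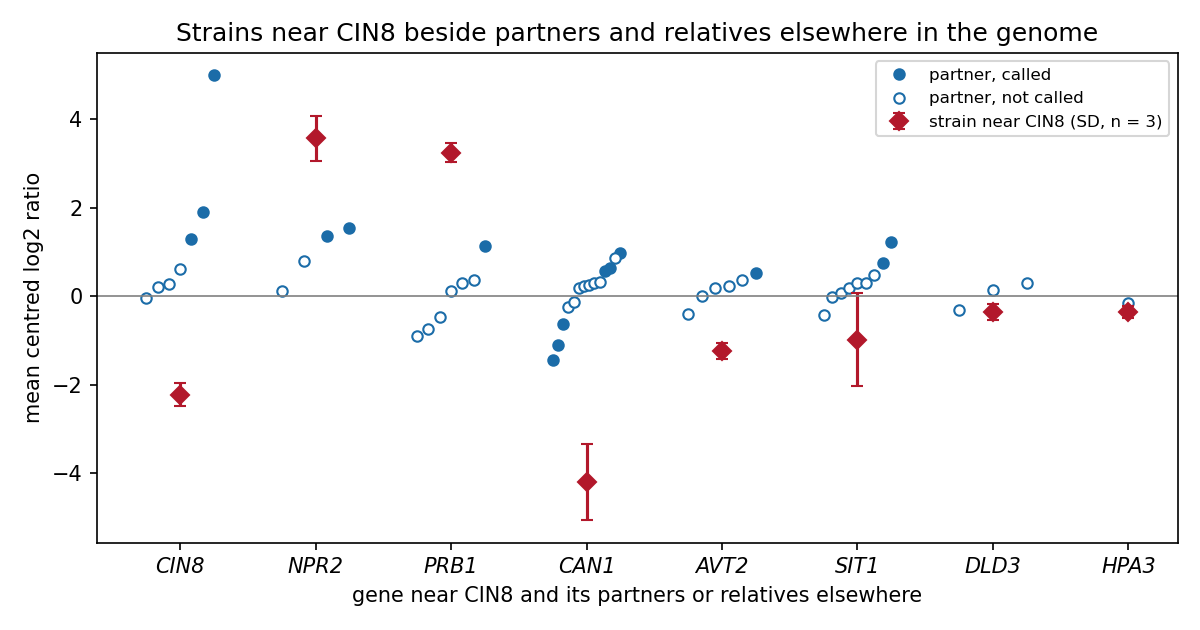
Mean centred log2 ratio (vertical axis) of 8 of the strains near CIN8 (red, with SD over 3 arrays) beside strains of partners or relatives elsewhere in the genome (blue, filled where called). NPR2 and PRB1 lie above all of their partners, and CIN8, CAN1 and AVT2 below all of theirs. CIN8 is the query gene itself, so its level is not comparable with those of its relatives.

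Over the 5-FOA percentage none of the 9 strains had a called slope, as none of the 5204 strains did (0%; limma, with 263 at an unadjusted p under 0.05). CAN1 had a slope of 1.72 per 0.1% (limma, unadjusted p = 0.0113, adjusted p = 0.945), but 2 of its 6 values are limits. NPR2 had a slope of -0.96 and CIN8 of -0.49. With 1 experiment per concentration, the effects of both cannot be told apart. None of the 8 strains with both tags on every array had tag sets that differed by the test, against 7.22% called over 4293 strains (limma, adjusted p under 0.05).

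The calls were lost when an experiment was left out. Without experiments 1, 2 and 3 the means were -2.33, -2.27 and -2.08 for CIN8, 3.37, 3.45 and 3.85 for NPR2, 3.17, 3.36 and 3.20 for PRB1, -3.77, -4.20 and -4.63 for CAN1, and -1.21, -1.35 and -1.18 for AVT2. With 2 arrays 0 strains of the whole table were called, at smallest adjusted p-values of 0.0787, 0.0628 and 0.0770, and 1876, 1993 and 1874 had an unadjusted p under 0.05 (limma). These included CIN8, NPR2, PRB1, CAN1 and AVT2 each time, and SIT1 without experiment 2. SIT1 stood at -0.70, -1.59 and -0.67 without experiments 1, 2 and 3, beside -0.99 with all. The CAN1 to NPR2 step was 7.14, 7.66 and 8.48, and 1, 2 and 0 other pairs were then larger. With the lowest ratios left out it was 6.52, with 2 pairs larger.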

How the data were processed

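Tags of single-mutant and double-mutant pools were compared on 3 two-colour arrays. Per the labels, images were read with GenePix 5.1. The authors deposited log2 ratios, without stating formula, filters or normalization in the sources used here. On the linear scale every ratio was a multiple of 0.01 (relative tolerance 0.001), and 36 at a ratio of 999999 were left out as placeholders. Gene names came from the platform annotation (18794 of 22575 probes with 1 symbol, 0 with several and 3781 with none), and gene order from RefSeq R64 (5321 of 5325 genes matched). Probes 10971 identifiers apart name the same gene and were taken as the tags.

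Values were centred per array and tag set over named probes, spots averaged per tag and tags per strain. Limma 3.58.1 in R 4.3.3 tested means, tag differences, neighbour steps and slopes, two-sided, with Benjamini-Hochberg adjustment over all strains or pairs. The fits were tested on simulated data. Figures used Python 3.11.15, pandas 2.3.3, numpy 2.4.6 and matplotlib 3.10.9. The named strains were the 9, their nearest neighbours, the 5 most like CIN8 and up to 4 called members per list. Further list members, IES6, GIM4 and VAC8 were named after their values were seen. Members and lists were chosen with earlier results of these data known. A total of 5 list names that are synonyms of other listed genes (SEA2, SEA3, LAP4, TAF1 and ARN4) were dropped, and IML1 and SEH1 had no named probe.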

Additional observations from a re-analysis of the deposited data

How the results depend on the processing

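Leaving out 1 experiment gave 0 calls for strain means, either sign, tag differences and steps, for the whole table and for the strains near CIN8 (0 to 0), 0 to 253 calls in tag set A (0 to 3 of the 9 strains) and 0 to 15 in tag set B (0 to 0), since fewer arrays were tested. The tag value closer to 0 gave 751 calls (433 positive, 318 negative) and the 5-FOA covariate 228 (91 and 137), against 1748 (842 and 906), with 5 and 4 of the 9 called. Without centring 602 were positive and 1261 negative, and 7 of the 9 were called. In tag set A alone 3 of the 10 steps were called, and in tag set B alone 3 of the 8 that could be tested. With only strains that had both tags on every array, which left out SIT1, 1929 were called, and 6 of the other 8. Some values that were not called changed sign. RMD6 stood at -0.066 without centring and, with 1 experiment left out, ranged from -0.0024 to 0.19, or from -0.15 to 0.12 in tag set B. With 1 experiment left out, tag differences ranged from -2.85 to 0.86 for CAN1, -0.066 to 0.12 for HPA3 and -0.24 to 0.11 for DLD3, and the step from SIT1 to AVT2 from -0.51 to 0.24. The cause was not tested. Keeping the placeholders, an alternative chosen after seeing the data, kept 5 strains and 5 steps called. Both pools share each array, so that each ratio is itself a paired value. The single-mutant tags were in Cy5 on every array. An effect of the dye on a tag therefore cannot be told apart from that of the pool. Signal over background is unknown.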
